A study of Mus musculus with 9 samples.

Results

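The CREB factors Creb1, Crem, Atf1, Creb3 and Creb5, the CRTC coactivators Crtc1, Crtc2 and Crtc3, the coactivator Crebbp and the kinase Sik1 were followed in the colon of 9 wild-type mice. These 10 genes were found by symbol through their Ensembl identifiers, among 22262 genes with a count in at least 1 library, and all 10 had counts. They were chosen by a rule that made use of measured values, because higher counts of Crtc2 and Creb5 in one of the environments were already known. The difference between the environments is therefore given for these 10 genes as a description. The fit over all genes includes them, but which of them pass its threshold follows from values already known and is no test of them.

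The mice were female C57BL/6N wild types aged 12 months that carried no transgene. From weaning, 4 mice lived in a standard environment (WT_SE, mice 1, 2, 3 and 5), in groups of a few animals per cage without added objects. The other 5 lived in an enriched environment (WT_EE, mice 1 to 5), a large shared cage with running wheels, tunnels and toys that were moved regularly. A piece of the upper colon with all its layers was flushed and frozen, and polyadenylated RNA was counted from its 3′ end with unique molecular identifiers. Which mice shared a cage was not given in the sources used here, so the p-values below measure only the spread between these animals. In such whole tissue, fewer cells of a type and less RNA per cell cannot be told apart. The question the comparison addresses is how housing changes gene expression in the colon.

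CREB is a transcription factor with a basic leucine zipper that binds the cAMP response element of its target genes. When cAMP rises, protein kinase A phosphorylates CREB, which then binds the histone acetyltransferase CBP, encoded by Crebbp. The CRTC coactivators are held in the cytoplasm while salt-inducible kinases such as SIK1 keep them phosphorylated, and they enter the nucleus and join CREB once calcineurin removes the phosphates. In the gut this pathway answers to peptide hormones, neurotransmitters and prostaglandins, and much of it is set by phosphorylation, which RNA counts do not show.

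The letters that CREB reads are shown first, because promoters of several genes below hold them. The full element is TGACGTCA, which reads the same on both strands, and its first 5 letters, TGACG, are the shorter form that CREB also binds. Both were searched on both strands from 250 bases before to 50 bases after each transcription start in RefSeq (GRCm38.p6). Of 32851 such windows over all genes, 1.79% held the full element and 20.81% held the short form, each full element counting as 2 overlapping short forms. Windows matched 7 of the 10 genes, and Crtc2, Crem and Sik1 were not matched. Creb5 was the gene among the 7 with a full element, 45 bases before the first of its 2 listed starts, and its second window held neither form. Atf1 held 1 short form, 90 bases before its start, and the windows of Crtc1, Crtc3, Creb1, Creb3 and Crebbp held none. The stretches are given 5′ to 3′ on the strand of the gene, with TGACG on either strand in capitals, at chr6:53287233-53287290 (plus strand) for Creb5 and chr15:100227744-100227798 (plus strand) for Atf1.
Creb5: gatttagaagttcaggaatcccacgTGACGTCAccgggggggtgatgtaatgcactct
Atf1: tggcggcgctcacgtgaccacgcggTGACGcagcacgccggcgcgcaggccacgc
A match describes these letters and is not evidence of binding, and a window without a match says only that the letters are not within it.

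The libraries held between 299062 and 383401 counts in WT_SE and between 295535 and 454043 in WT_EE, and 17441 genes that reached 4 CPM somewhere were tested. CPM are molecule counts brought to a common library size, here after scaling by the trimmed mean of M values, and a count of 3 molecules in a library was taken as the floor, which was 6.48 to 10.5 CPM. Counts of abundant genes followed the library total less than in proportion. Within environments, the summed counts of genes with a mean of 10 to 20 counts had a slope of 1.35 on the library total (both on the log2 scale, with 1 meaning proportion), and those of genes with 100 to 120 counts a slope of 0.38. Summed over such abundant genes, CPM was thus higher in shallow libraries, and for Crebbp values scaled to genes of the same count range are given as well. WT_SE mice 1 and 3 had library names ending in L3 and all other mice in L2, a difference whose meaning was not given in the sources used here.

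In the fit over all genes, 2 of the 10 genes passed an unadjusted p of 0.05 (edgeR's quasi-likelihood test), Crtc2 and Creb5, where 7.65% of all genes tested passed it. Both were higher in WT_EE, a direction in which 4.31% of all genes passed, against 3.34% that were lower. None of the 10 passed Benjamini-Hochberg adjustment over all genes, which 0.0401% of genes did. Since earlier values of this contrast chose the genes, nothing is read from these counts. The fitted log2 fold change of WT_EE over WT_SE was positive for 8 of the 10, with a median of 0.18 against 0.01 over all genes tested.

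Crtc2 (ENSMUSG00000027936, chromosome 3 from 90254163 to 90264125 on the plus strand, GRCm38) encodes the CRTC coactivator best known from the hepatic response to glucagon. It had 1, 2, 0 and 0 counts in WT_SE mice 1, 2, 3 and 5, and 15, 4, 7, 5 and 9 counts in WT_EE mice 1 to 5. In normalized CPM these were 2.61, 5.57, 0 and 0 against 32.4, 13.9, 15.3, 15.5 and 20.8. Every WT_EE mouse was above every WT_SE mouse, a separation without overlap that 1.38% of all genes tested showed in this direction and 1.2% in the other. The WT_SE mean was 2.04 ± 2.65 CPM (SD, n = 4). The WT_EE mean was 19.6 ± 7.62 CPM (SD, n = 5). WT_SE held 3 molecules in all and WT_EE 40, a ratio of 9.53 per effective library size. Its exact 95% interval of 3.04 to 48.2 covers counting error only. The interval pools molecules over mice and reuses the counts that chose the gene, so it is no test of the environment. All 4 WT_SE mice were at or under the floor, so the fitted log2 fold change of 3.05 ± 0.67 (SE) depends on the prior count.

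The separation of Crtc2 rested on few molecules. The fits that follow reuse the values that chose the gene, so they describe it and do not test it. With each mouse left out in turn, the fitted log2 fold change of Crtc2 ran from 2.68 to 3.99, the highest without WT_SE mouse 2. Among the libraries ending in L2, without WT_SE mice 1 and 3, it was 2.74 ± 0.80 (SE), and without WT_EE mice 2 and 4 it was 3.24 ± 0.69 (SE). Scaled to genes of the same count range, Crtc2 was 0 to 5.05 in WT_SE and 14 to 30.1 in WT_EE, again without overlap. The summed B cell markers were at 3.38 to 64.0 CPM in WT_SE and 0 to 8.64 CPM in WT_EE, with Cd79a at 0 in every mouse. Of the 4 tested, 3 passed an unadjusted p of 0.05 (edgeR) as lower in WT_EE, as 3.34% of all genes did. The part of B cells in the values of Crtc2 was not tested.

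**Figure D1:**
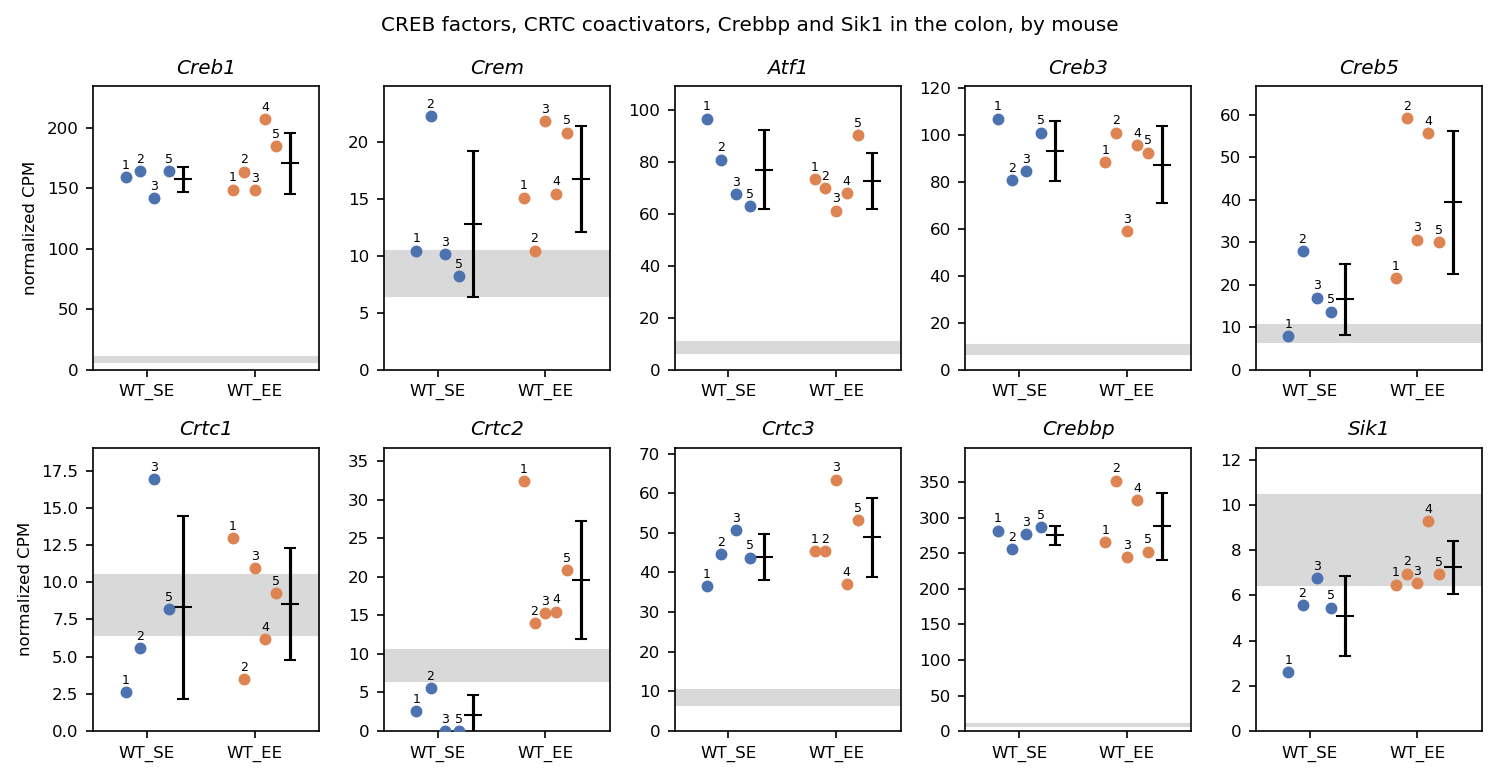
Normalized CPM of each of the 10 genes (y axis, linear from 0) in WT_SE (blue) and WT_EE (orange). Points are mice with their numbers, the bar beside each group is the mean ± SD, and the gray band is the range of the floor of 3 counts over the libraries. Crtc2 is at or under the floor in all 4 WT_SE mice and above it in all 5 WT_EE mice, while the other genes overlap between the environments.

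Crtc3, the most counted of the 3 coactivators (chromosome 7 from 80586627 to 80688877, minus strand), is known for its role in fat tissue and in macrophages. It had 14, 16, 15 and 16 counts in WT_SE and 21, 13, 29, 12 and 23 in WT_EE. Its level averaged 43.9 ± 5.81 (SD, n = 4) against 48.9 ± 9.91 CPM (SD, n = 5) with overlapping groups, and its fitted log2 fold change was 0.18 ± 0.26 (SE). Crtc1, the coactivator best known from neurons (chromosome 8 from 70382355 to 70439579, minus strand), had 1, 2, 5 and 3 counts in WT_SE and 6, 1, 5, 2 and 4 in WT_EE. Its means were 8.32 ± 6.16 and 8.56 ± 3.77 CPM (SD, n = 4 and 5), and only 1 of the 4 WT_SE mice and 3 of the 5 WT_EE mice were above the floor. A difference in Crtc1 was not detectable at this depth, and its log2 fold change of 0.19 ± 0.60 (SE) turned to -0.12 without WT_SE mouse 1.

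Within the CRTC family the share of Crtc2 differed between the environments along with its level. Crtc2 made up 6.25%, 10%, 0% and 0% of the CRTC counts in WT_SE mice 1, 2, 3 and 5, and 35.7%, 22.2%, 17.1%, 26.3% and 25% in WT_EE mice 1 to 5. Each share stands on 16 to 42 molecules, so the exact 95% intervals of single mice were wide, with upper ends of 16.8 to 31.7% in WT_SE and lower ends of 6.41 to 21.6% in WT_EE, and they overlapped between most mice of the environments. The mean share of Crtc2 was 4.06 ± 4.93% (SD, n = 4) and 25.3 ± 6.83% (SD, n = 5). That of Crtc3 was 81.7 ± 5.41% and 64.0 ± 8.80%, and that of Crtc1 14.3 ± 8.16% and 10.7 ± 3.23%. The 3 genes summed to 54.3 ± 10.7 CPM in WT_SE and 77.0 ± 15.2 CPM in WT_EE, with WT_EE mice 2 and 4 within the range of WT_SE.

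**Figure D2:**
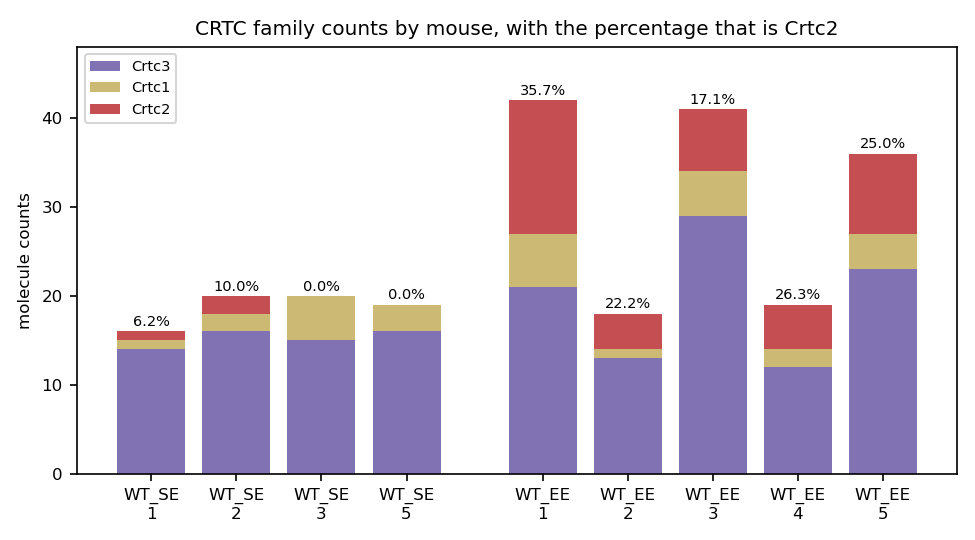
Molecule counts of Crtc3, Crtc1 and Crtc2 stacked for each mouse (y axis, counts from 0), with the percentage that was Crtc2 above each bar. Crtc2 is 0 to 10% of the CRTC counts in the WT_SE mice and 17.1 to 35.7% in the WT_EE mice.

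Creb5 (ENSMUSG00000053007, chromosome 6 from 53287270 to 53700376, plus strand) encodes a CREB-related factor whose zipper is closest to those of ATF2 and ATF7. It had 3, 10, 5 and 5 counts in WT_SE and 10, 17, 14, 18 and 13 in WT_EE. In CPM these were 7.83, 27.8, 16.9 and 13.7 against 21.6, 59.3, 30.6, 55.7 and 30.1. WT_EE mice 2 and 4 were far above all others, and WT_SE mouse 2 lay above WT_EE mouse 1, so that the groups overlapped. Creb5 averaged 16.6 ± 8.41 (SD, n = 4) against 39.4 ± 16.9 CPM (SD, n = 5), which gave a fitted log2 fold change of 1.18 ± 0.39 (SE).

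The same WT_EE mice 2 and 4 had the highest smooth muscle markers. All 7 markers of the list were detected in every mouse. They summed to 3224 and 3182 CPM in these mice, against 1753 to 2180 CPM in the other WT_EE mice and 1838 to 2315 CPM in WT_SE. Of the 7, 2 passed an unadjusted p of 0.05 (edgeR) as higher in WT_EE, as 4.31% of all genes did. So did 1 of 7 in epithelium and in enteric neurons, 1 of 4 in enteric glia and in endothelium, and 0 of 5 in fibroblasts. With scaling to genes of the same count range the smooth muscle sums of mice 2 and 4 were 2706 and 2685. The other WT_EE mice then had 2017 to 2351 and WT_SE 1748 to 2240. On that scale the same mice also had the highest summed markers of endothelium, enteric glia and fibroblasts. Endothelium was at 209 and 227, against 102 to 171 in all other mice. Enteric glia were at 81.9 and 90.6 against 22.8 to 64.6, and fibroblasts at 979 and 821 against 731 to 787. In no other list were both mice above all others. Both mice were also low in Slc10a2 and Fabp6, transporter and binding protein of bile acids in the distal ileum and neighbouring bowel. The 2 genes summed to 17.4 and 12.4 CPM in these mice. Low sums were shared by WT_EE mouse 5 (34.7 CPM) and WT_SE mice 1 and 5 (75.7 and 57.4 CPM). WT_EE mice 1 and 3 had 268 and 330 CPM, and WT_SE mice 2 and 3 had 365 and 419 CPM. Without WT_EE mice 2 and 4 the log2 fold change of Creb5 was 0.73 ± 0.42 (SE), and it was lower than over all mice too with the name ending as a covariate (0.85 ± 0.45 SE) and among the libraries ending in L2 (0.86 ± 0.45 SE). The part of the muscle layer, endothelium, glia or fibroblasts in the values of Creb5 was not tested. Crtc2 showed no such pattern, since mice 2 and 4 had the lowest value and the median value of the WT_EE mice.

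**Figure D3:**
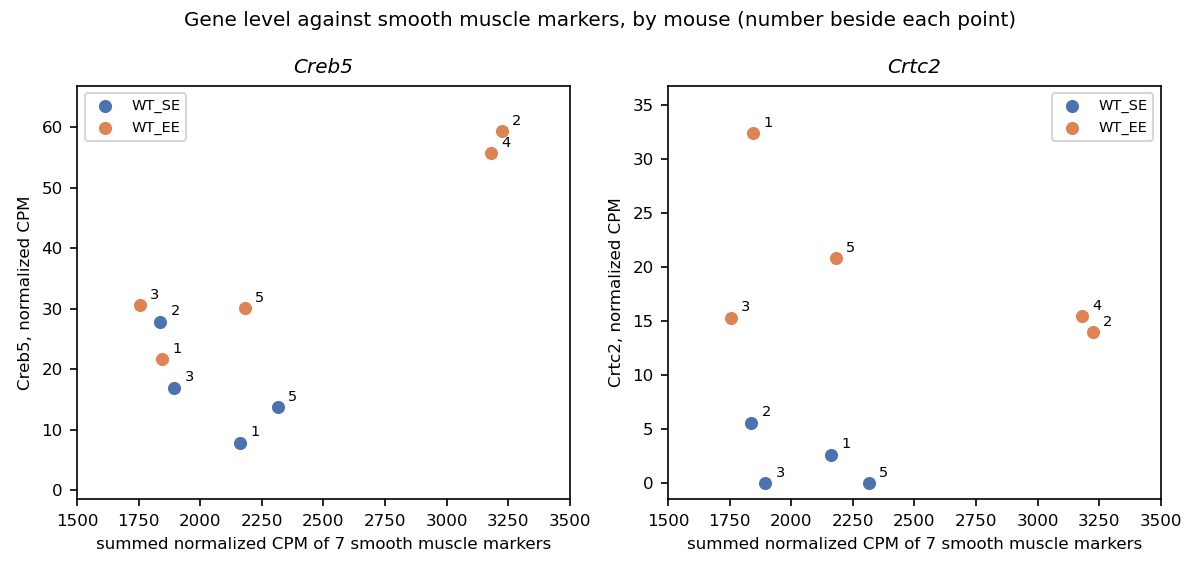
Normalized CPM of Creb5 (left) and Crtc2 (right) against the summed normalized CPM of the 7 smooth muscle markers, 1 point per mouse with its number, WT_SE in blue and WT_EE in orange. WT_EE mice 2 and 4 stand apart at 3224 and 3182 CPM of markers with the highest Creb5 (59.3 and 55.7 CPM), whereas their Crtc2 (13.9 and 15.5 CPM) is within the range of the other WT_EE mice or just below it.

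Creb1, Atf1 and Crem encode the 3 factors closest to one another in the family, and they can pair with each other on the cAMP response element. Creb1 (chromosome 1 from 64532645 to 64604548, plus strand) had 61, 59, 42 and 60 counts in WT_SE and 69, 47, 68, 67 and 80 in WT_EE. It averaged 157 ± 10.5 (SD, n = 4) against 171 ± 25.2 CPM (SD, n = 5), a log2 fold change of 0.10 ± 0.15 (SE), with WT_EE mouse 4 the highest at 207 CPM. Atf1 (chromosome 15 from 100227819 to 100261244, plus strand) had 37, 29, 20 and 23 counts against 34, 20, 28, 22 and 39. Its means were 77.0 ± 15.1 and 72.5 ± 10.8 CPM, a log2 fold change of -0.09 ± 0.21 (SE) whose sign was kept in 18 of 21 alternatives. The environments overlapped for both genes.

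Crem (chromosome 18 from 3266048 to 3337748, minus strand) yields activators and also the short inducible repressor ICER, which 3′ counts of a gene do not separate. It had 4, 8, 3 and 3 counts in WT_SE and 7, 3, 10, 5 and 9 in WT_EE, or 10.4, 22.3, 10.1 and 8.20 CPM against 15.1, 10.5, 21.9, 15.5 and 20.8 CPM. WT_SE mouse 2 had the highest value of all, and the other 3 WT_SE mice had the lowest. The log2 fold change of 0.41 ± 0.45 (SE) was 0.83 without that mouse. Crem made up 5.09 ± 2.21% (SD, n = 4) of the counts of Creb1, Crem and Atf1 in WT_SE and 6.49 ± 1.95% (SD, n = 5) in WT_EE.

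Creb3 (chromosome 4 from 43562332 to 43567060, plus strand) encodes a factor that sits in the membrane of the endoplasmic reticulum and is released by cleavage, and its link to cAMP is loose. It had 41, 29, 25 and 37 counts against 41, 29, 27, 31 and 40, and averaged 93.4 ± 12.7 (SD, n = 4) against 87.4 ± 16.5 CPM (SD, n = 5). The groups overlapped, and the log2 fold change was -0.12 ± 0.20 (SE). Creb3 overlaps Tln1 and Gba2 on the other strand, with 776 and 24 counts over the 9 mice, and molecules of either gene could enter its counts if strand was not used. Crem likewise overlaps Gm6225 with 11 counts, and Creb5 overlaps Gm44080 on its own strand with 1 count.

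Crebbp (chromosome 16 from 4081328 to 4213997, minus strand) was the most counted of the 10, with 108, 92, 82 and 105 counts in WT_SE and 123, 101, 112, 105 and 109 in WT_EE. Its CPM was 282, 256, 277 and 287 in WT_SE and 266, 352, 245, 325 and 252 in WT_EE, with mice 2 and 4 highest. These were the shallowest WT_EE libraries, with 295535 and 336967 counts. Scaled to genes of the same count range, Crebbp was 305, 298, 284, 276 and 276 in WT_EE and 290, 260, 248 and 271 in WT_SE, and mice 2 and 4 no longer stood apart. The SD over the WT_EE mice was 47.7 CPM before and 12.9 after this scaling. The log2 fold change was 0.05 ± 0.14 (SE), or 0.10 ± 0.10 (SE) with the scaling, and the groups overlapped on both scales.

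Sik1, the kinase that keeps CRTC proteins out of the nucleus and is itself induced by CREB (chromosome 17 from 31844250 to 31855804, minus strand), had 1, 2, 2 and 2 counts in WT_SE and 3, 2, 3, 3 and 3 in WT_EE. No mouse was above the floor, so no fold change is given for it. Sik2 and Sik3, the other kinases of its family, were above the floor in mice of both environments, with log2 fold changes of 0.24 ± 0.36 (SE) and -0.06 ± 0.29 (SE), and neither passed the test.

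**Figure D4:**
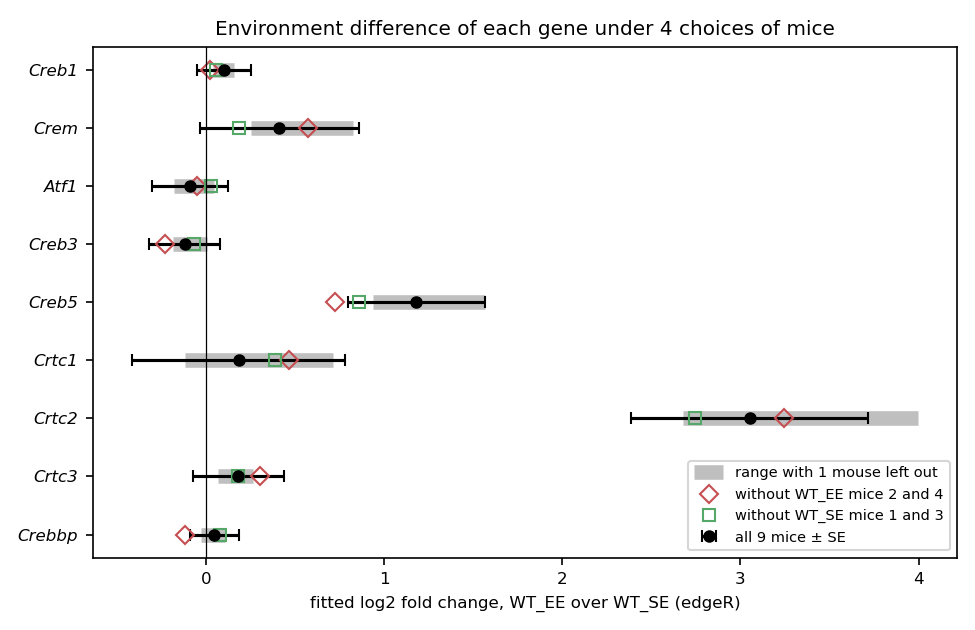
Fitted log2 fold change of WT_EE over WT_SE for 9 of the 10 genes (x axis, edgeR); Sik1 is left out because all its libraries are at or under 3 counts. Black points with bars are the fit over 9 mice ± standard error, gray bars the range with 1 mouse left out, red diamonds the fit without WT_EE mice 2 and 4, and green squares the fit without WT_SE mice 1 and 3. Crtc2 lies between 2.68 and 3.99 throughout, and Creb5 falls from 1.18 to 0.73 without WT_EE mice 2 and 4.

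Levels of different genes are set side by side here, because a molecule gives 1 count near its 3′ end whatever its length. Counts did not follow library depth in the same proportion in every range of abundance, as described above. The sizes of the steps therefore hold for the counts only. The order of mean CPM over 9 mice was Crebbp at 282, Creb1 at 165, Creb3 at 90.1, Atf1 at 74.5, Crtc3 at 46.7, Creb5 at 29.3, Crem at 15, Crtc2 at 11.8, Crtc1 at 8.46 and Sik1 at 6.29 CPM. Neighbours in this order were compared within mice over 9 pairs of genes (two-sided exact sign-flip permutation test, for which 9 mice allow a smallest p of 0.00391). The order was taken from the same 9 mice, so the direction of each step in mean CPM was given before its test. The tests show only how far a step held from mouse to mouse. Steps with Creb5 or Crtc2 also pool environments between which these genes were already known to differ. After adjustment over the 9 pairs, 6 differed. Crebbp was above Creb1 in 9 of 9 mice by 0.77 ± 0.19 on the log2 scale (SD, exact test, adjusted p = 0.0176), and Creb1 above Creb3 in 9 of 9 mice by 0.88 ± 0.25 (exact test, adjusted p = 0.0176). Atf1 was above Crtc3 in 8 of 9 mice by 0.67 ± 0.39 (exact test, adjusted p = 0.0234), and these 3 steps held with any mouse left out.

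The smaller steps were less firm. Creb3 was above Atf1 in 7 of 9 mice (exact test, adjusted p = 0.0352), Crtc3 above Creb5 in 7 of 9 (exact test, adjusted p = 0.0352) and Creb5 above Crem in 8 of 9 (exact test, adjusted p = 0.0264), but they held in only 2, 2 and 5 of the 9 sets with a mouse left out. Crem and Crtc2 (exact test, adjusted p = 0.121), Crtc2 and Crtc1 (exact test, adjusted p = 0.672) and Crtc1 and Sik1 (exact test, adjusted p = 0.316) did not differ beyond their spread. Since the counts of abundant genes rose less than in proportion to depth, the step from Creb1 to Crebbp sets a gene in a range with a slope of 0.94 beside one in the compressed range. By mean CPM within an environment, Crtc2 was the lowest of the 10 in WT_SE and 7th in WT_EE.

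Within environments, most of these genes showed no spread beyond counting error. For Crtc1, Crtc2, Crem and Sik1 the counts were too few for this measure to show a moderate spread between mice. The chi-square of the counts per degree of freedom was 0.13 to 1.18 for 8 of the 10 genes, with Crtc2 at 1.18. It was 2.25 for Creb5, from 1.59 in WT_SE and 2.75 in WT_EE. Crebbp had 1.70, from 0.24 in WT_SE and 2.80 in WT_EE, where the depth of the libraries moved with its values as described above.

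With the mean of each environment removed, the genes whose log2 CPM was most like that of each of the 6 genes with at least 10 counts per mouse were sought among genes with at least 50 counts, as a description over 9 mice that share library depth. Creb5 was most like Zbtb44 (Pearson's r = 0.97) and Agfg2 (0.96), and these stayed at 0.98 and 0.92 with scaling to genes of the same count range. Crebbp was most like Dsg2 (0.99) and Mbnl1 (0.97). With that scaling Dsg2 stayed at 0.99 and Mbnl1 came to 0.59, and the number of genes over 0.9 went from 75 to 2. Creb1 was most like Midn (0.93) and Ndufb3 (0.92), Creb3 like G3bp2 (0.95) and Gna13 (0.91), and Atf1 like Mat2b (0.93) and Fgfr1op2 (0.90). With the scaling G3bp2 came to 0.61, while Gna13 was at 0.92, Midn at 0.89, Ndufb3 at 0.81, Mat2b at 0.86 and Fgfr1op2 at 0.87. Other genes were then the highest, Sec62 for Creb1 (0.91), H1f0 for Creb3 (0.94) and Kmt5a for Atf1 (0.92). Before the scaling, genes over 0.9 numbered 11 for Creb5, 3 for Creb1, 4 for Creb3 and 1 for Atf1. The named genes are the highest of 2406 or 2407 compared over 9 mice. Picking the highest of so many gives large r by itself, so they are not read as partners. Among themselves the 6 genes gave 15 pairs with r from -0.78 (Crtc3 and Creb3) to 0.67 (Creb3 and Crebbp) and a median of -0.05, and the latter pair came to 0.33 with the scaling.

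The other genes of the pathway were counted in 7 lists, beside the 7.65% of all genes that passed the test. Of 13 related factors with a basic leucine zipper, 1 was higher in WT_EE, Atf6b, a sensor of endoplasmic reticulum stress (log2 fold change 0.44 ± 0.21 SE, unadjusted p = 0.0457), a call kept in 10 of 21 alternatives. Of 21 regulators of CRTC proteins, 1 was higher, Sfn, which encodes an anchor protein for phosphorylated partners (0.53 ± 0.24 SE, unadjusted p = 0.0302). The calcineurin genes Ppp3ca, Ppp3cb and Ppp3r1, which encode the phosphatase that frees CRTC, stood at log2 fold changes of -0.01, 0.05 and -0.04 without passing the test. Ppp3cc, the other calcineurin gene of the list, had a mean of 5.11 counts per mouse and was at 0.28 ± 0.55 (SE). It did not pass either.

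Of 25 genes tested for cAMP synthesis, protein kinase A and its anchors, 1 was lower, Prkar2a, a regulatory subunit of protein kinase A (-0.33 ± 0.15 SE, unadjusted p = 0.0329). The catalytic subunits Prkaca and Prkacb had log2 fold changes of 0.24 and 0.23, and neither passed. None of 16 phosphodiesterases, which break down cAMP, passed the test at an unadjusted p of 0.05 in edgeR, nor in DESeq2. Of 17 other kinases and phosphatases of CREB, 2 were higher, Ppp2cb, a catalytic subunit of protein phosphatase 2A (1.29 ± 0.33 SE, unadjusted p = 0.000347), and Camk2g, a calcium/calmodulin-dependent kinase (0.84 ± 0.30 SE, unadjusted p = 0.00801). The rise of Ppp2cb was known from earlier results. The call for Camk2g was lost with the name ending as a covariate and among the libraries ending in L2. No gene of these 5 lists passed adjustment over all genes.

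The 30 known CREB target genes had more calls than the other lists. Of these, 10 passed the test, or 33.3%, with 9 higher and 1 lower in WT_EE, and 24 of the 30 had a positive log2 fold change, with a median of 0.25 against 0.01 over all genes. The higher values of Nr4a2, Ptgs2 and Fosb were known before the list was written, so they are no independent evidence of its direction. Without them, 7 of 27 passed, or 25.9%, with 6 higher and 1 lower and a median of 0.22. The whole list was written with earlier results of these data known, so this share is no independent evidence either. With the name ending as a covariate 5 of the 30 passed, with 4 higher, and without WT_EE mice 2 and 4 there were 6, all higher.

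Nr4a2, an orphan nuclear receptor induced within minutes of cAMP, had 8, 6, 4 and 9 counts in WT_SE and 20, 11, 30, 30 and 31 in WT_EE. Every WT_EE mouse was above every WT_SE mouse in CPM, with means of 18.9 ± 4.83 (SD, n = 4) and 62.3 ± 22.2 (SD, n = 5). The log2 fold change of Nr4a2 was 1.68 (SE 0.32, adjusted p = 0.0249 by edgeR's quasi-likelihood test). Ptgs2, the inducible cyclooxygenase, had 1, 1, 1 and 2 counts in WT_SE and 6, 12, 9, 11 and 15 in WT_EE, again without overlap, with the same adjusted p of 0.0249 and all WT_SE mice at or under the floor. With each gene scaled to its count range, the adjusted p was 0.0532 for Nr4a2 and for Ptgs2. Over all alternatives it ran from 9.43e-05 to 0.718 for Nr4a2 and from 0.000666 to 0.718 for Ptgs2, while the unadjusted p of both stayed under 0.05 in every alternative that tested them.

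Of the remaining targets, Areg, a ligand of the epidermal growth factor receptor, had 19, 7, 6 and 18 counts in WT_SE and 22, 27, 21, 25 and 48 in WT_EE, a log2 fold change of 1.06 (SE 0.30, unadjusted p = 0.00124) that was called in all 21 alternatives, with groups that overlapped. Cyr61 (now Ccn1), a matrix protein induced by growth signals, had 0, 7, 0 and 1 counts against 10, 6, 12, 6 and 4, a log2 fold change of 1.71 ± 0.62 (SE). Nr4a1, a relative of Nr4a2, had a log2 fold change of 0.81 ± 0.31 (SE), and Tgm2, a transglutaminase, one of 0.48 ± 0.20 (SE) with no overlap between the groups. With the name ending as a covariate these 3 genes were at 0.79, 0.48 and 0.38 and were no longer called. Fos, Fosb and Nfil3 were the other genes called higher. For both Fosb and Nfil3 all WT_SE mice were at or under the floor, and only 1 of the 5 WT_EE mice was above it. Ppargc1a, a coactivator of mitochondrial genes and the classic target of Crtc2 in liver, was the gene called lower (-0.48 ± 0.22 SE, unadjusted p = 0.0374), and it is named although it falls outside the rule for named genes. Its value was -0.15 with the name ending as a covariate. The textbook targets Sst, Pck1, Per1 and Junb stood at log2 fold changes of 0.35, 0.04, -0.28 and 0.11 without passing the test.

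**Figure D5:**
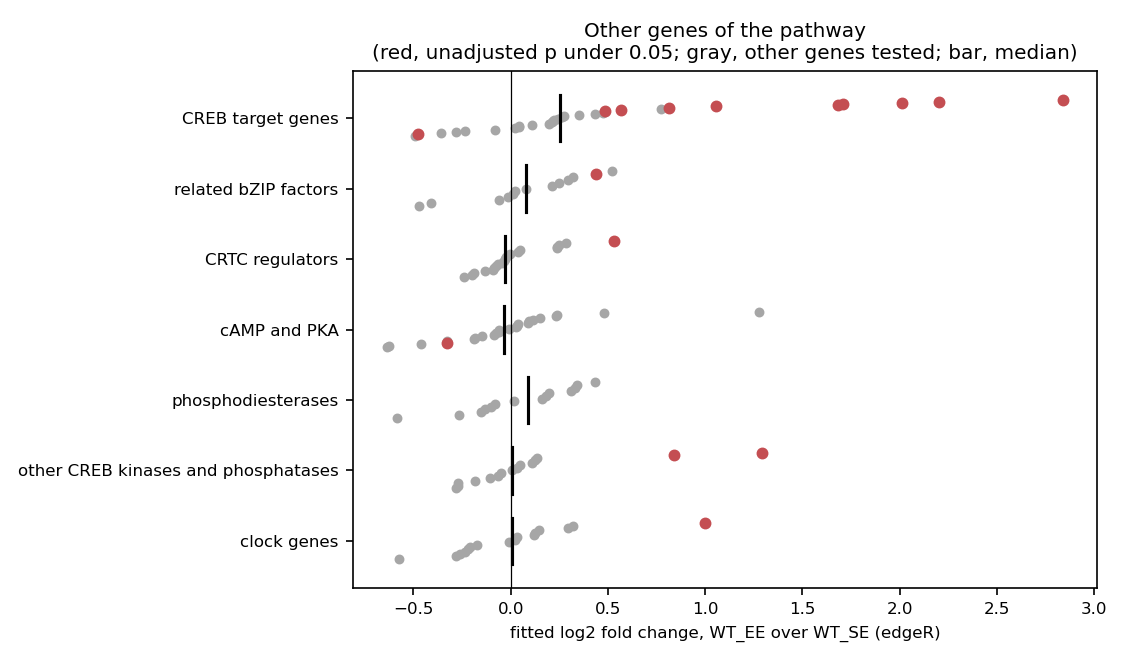
Fitted log2 fold change of WT_EE over WT_SE (x axis, edgeR) for the genes of the 7 lists, 1 point per gene. Red points passed an unadjusted p of 0.05, gray points did not, black bars are the list medians over the points drawn, and genes with all libraries at or under 3 counts are left out. Of the 30 CREB target genes 10 are red, 9 of them to the right of 0, while each other list holds 0 to 2.

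Promoter windows matched 25 of the 30 targets. These 25 genes had 35 windows, and a gene was counted if any of its windows held a form. The short form TGACG was held by 23, and the full element TGACGTCA by 5, namely Btg2, Areg, Pcsk1, Sst and Dusp1. Over all genes 20.81% and 1.79% of single windows held them, which is not the same unit as a share of genes. Since the list was drawn from genes known to answer to CREB, these shares describe the list. Areg, which was called, and Sst, which was not, both held the full element, and Nr4a2 held 4 short forms, as did Nr4a1, which was called, and Nr4a3, which was not. A window with at least 4 was found in 0.2313% of all windows. The stretches of Areg, Nr4a2 and Sst are shown and lie at chr5:91139459-91139570 (plus strand) for Areg, chr2:57124085-57124228 (minus strand) for Nr4a2 and chr16:23890860-23890917 (minus strand) for Sst, with capitals as above.
Areg: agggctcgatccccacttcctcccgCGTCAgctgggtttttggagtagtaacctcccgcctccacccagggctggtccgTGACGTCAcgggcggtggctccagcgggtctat
Nr4a2: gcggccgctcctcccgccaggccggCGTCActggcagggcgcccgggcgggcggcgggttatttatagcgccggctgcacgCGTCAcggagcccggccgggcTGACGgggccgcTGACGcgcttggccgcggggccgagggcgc
Sst: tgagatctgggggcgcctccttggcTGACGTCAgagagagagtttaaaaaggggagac
CGTCA is TGACG read on the other strand.

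Clock genes were listed because CREB acts on Per1 and Per2. Of 16 tested, 1 was higher in WT_EE, Arntl (0.999 ± 0.396 SE, unadjusted p = 0.0161), which was known from earlier results. With the name ending as a covariate 3 were called, all lower, and Arntl was not among the genes called higher.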

How the data were processed

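Colon RNA of 9 mice was analysed, WT_SE (4) and WT_EE (5), grouped by the labels. The authors deposited counts of unique molecular identifiers per Ensembl gene, 1 file per mouse, made from QuantSeq 3′ libraries. The submitters' processing notes name fastp 0.20.0, STAR 2.7.0f (the study's methods name another STAR version), featureCounts 1.6.0, UMI-tools and GRCm38.p6. Whether the counting used strand is not given in the sources used here. The transgenic mice were not analysed here.

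A gene without an entry in a file was given 0 counts. All genes that reached 4 CPM in 1 or more libraries were tested by environment with edgeR 4.0.16 (R 4.3.3, quasi-likelihood F test, scaling by the trimmed mean of M values), and called at an unadjusted p of 0.05. The fit was tested on simulated data. Levels were compared on log2(CPM + 0.5). Alternatives were other filters and scalings, DESeq2 1.42.0, limma-voom (limma 3.58.1), a replicate block, the name ending, and each mouse left out. Added after seeing the data were a fit without WT_EE mice 2 and 4, the target list without the 3 genes known beforehand, and scaling to genes in 10 ranges of mean count.

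The 10 genes and all lists were chosen with earlier results of these data known. Named from each list were genes with an unadjusted p under 0.05, at most 6 by smallest p, and for each of the 6 best counted genes the 2 most alike, of which those of Crtc3 are not reported here. Mouse numbers did not pair the animals (same-number correlations of -0.01 to 0.18), and no 2 libraries of an environment agreed within sampling noise (chi-square per degree of freedom 1.20 to 2.89). Promoters are from RefSeq. A planned search of protein sequences for kinase sites was not run.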

Additional observations from a re-analysis of the deposited data

Results flagged for a closer look

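Crem in WT_SE mouse 2 was at 22.3 CPM (8 counts), while mice 1, 3 and 5 of its group had 8.20 to 10.4 CPM. Sik1 in WT_EE mouse 4 was at 9.28 CPM, apart from the other WT_EE mice at 6.48 to 6.97 CPM, but its 3 counts are the floor and other WT_EE mice had as many, and the depth of its library differs. Of 20 groups examined for such a gap, chance gives about 1.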

How the results depend on the processing

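Of 17441 genes tested, 1334 were called. Over the same genes there were 643 calls with DESeq2, 688 with the name ending as a covariate and 410 at an unadjusted p of 0.01. The number tested changed with other choices. With edgeR's filter by expression 804 of 8590 were called, and among the libraries ending in L2 680 of 17097. With 1 mouse left out there were 899 to 1581 calls. Calls higher in WT_EE were 56.3% of the 1334, 45.0% of 1368 with upper quartile scaling and 45.2% of 1304 without WT_EE mice 2 and 4. The count of the 10 genes called fell from 2 to 1 with the ending as a covariate, among libraries ending in L2 and without WT_EE mice 2 and 4, where Creb5 lost its call. It was also 1 with edgeR's filter, but that filter kept only 6 of the 10 genes. Crtc2 did not pass the filter and was not tested with it. Since known values of Crtc2 and Creb5 chose the 10 genes, the count of calls is no measure of their stability. The log2 fold change of Crebbp was -0.12 without WT_EE mice 2 and 4.

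Calls of CREB target genes, 10 of 30, were 6 of only 23 tested with edgeR's filter. That filter also tested only 12 related factors, 19 CRTC regulators and 8 phosphodiesterases. Calls of targets fell to 6 without WT_EE mice 2 and 4, 5 with DESeq2, with the ending and among libraries ending in L2, and 4 at p under 0.01. They were 4 to 12 with 1 mouse left out (4 without WT_SE mouse 3). The single related factor was lost (0 called) with edgeR's filter, upper quartile scaling, DESeq2, both treatments of the ending, the count range scaling and at p under 0.01, and 0 to 2 were called with 1 mouse left out (0 without WT_SE mouse 2 or 3 or WT_EE mouse 3). CRTC regulators had 0 calls with edgeR's filter, DESeq2, both treatments of the ending and at p under 0.01, 3 (all lower) without WT_EE mice 2 and 4, and 0 to 2 with 1 mouse left out (0 without WT_SE mouse 3 or WT_EE mouse 2, 4 or 5). The cAMP and protein kinase A list had 0 with DESeq2, both treatments of the ending and at p under 0.01, 2 with limma-voom, 3 (all lower) without WT_EE mice 2 and 4, and 0 to 3 with 1 mouse left out (0 without WT_SE mouse 3 or WT_EE mouse 3 or 5, and 3 without WT_SE mouse 5). Phosphodiesterases had 1 with edgeR's filter and 0 to 2 with 1 mouse left out (2 without WT_EE mouse 3). Other kinases and phosphatases had 1 with both treatments of the ending and 2 to 3 with 1 mouse left out. Clock genes had 2 calls with no filter, DESeq2's size factors, upper quartile scaling, the replicate block and the count range scaling, 3 with both treatments of the ending, 0 at p under 0.01 and 0 to 2 with 1 mouse left out (0 without WT_EE mouse 5). Of the 9 steps in the order of levels, 6 differed, and 3 to 5 did with 1 mouse left out (3 without WT_SE mouse 3 or 5 or WT_EE mouse 1 or 5). The causes of these changes were not tested.

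With the mouse number as a replicate block 1170 genes were called, and the calls of the 10 genes stayed at 2. The numbers do not mark shared animals, and no mouse was most like its own number. Depth limits Crtc1, Crtc2, Crem and Sik1, whose mean counts were under 6 per mouse, and the compressed counts limit Crebbp.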
